A study of Rattus norvegicus with 9 samples.

Results

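CaM kinase, calcineurin and Nos1 transcripts were measured in the ipsilateral lumbar spinal cord (L3-L6) of wild-type Sprague Dawley rats. The members are the 9 genes Camk2a, Camk2b, Camk2d, Camk2g, Camk4, Camkk2, Ppp3ca, Ppp3cb and Nos1, taken by gene name from a table of 34890 loci, and each name matched 1 locus. Their Ensembl identifiers are ENSRNOG00000018712 (Camk2a), ENSRNOG00000052080 (Camk2b), ENSRNOG00000011589 (Camk2d), ENSRNOG00000009783 (Camk2g), ENSRNOG00000020478 (Camk4), ENSRNOG00000001309 (Camkk2), ENSRNOG00000009882 (Ppp3ca), ENSRNOG00000054782 (Ppp3cb) and ENSRNOG00000001130 (Nos1). The 3 sham-operated rats (JA) and the 3 rats with spared nerve injury (SNI) received saline by mouth. Spared nerve injury severs all but the sural branch of the sciatic nerve, and is a model of neuropathic pain. The 3 rats of the third group (PLM) had the same injury and were given paeoniflorin and liquiritin, which are plant glycosides, at the middle of the doses used. The labels put paeoniflorin at 20.65 mg/mL in each PLM sample and liquiritin at 3.98, 3.99 and 3.100 mg/mL in PLM 1, 2 and 3. The methods of the study describe a single dose for the whole PLM group, so these liquiritin labels may be an entry error and are not read as different doses. No group was uninjured and given the drugs, so the drugs were not measured apart from the injury. Values are TPM, a relative transcript abundance, adjusted for transcript length with every sample brought to the same total, so levels can be set side by side between genes. TPM keeps no read depth, and the depth of each sample is unknown.

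Calcium that enters a dorsal horn neuron through NMDA receptors binds calmodulin, and calcium-calmodulin switches on 3 kinds of enzyme among these genes. CaM kinases phosphorylate receptors, channels and transcription factors. CaMKII is a holoenzyme built from alpha, beta, delta and gamma subunits, encoded by Camk2a, Camk2b, Camk2d and Camk2g, and it is known for its part in synaptic strengthening and in spinal sensitization after injury. Camk4 encodes a nuclear kinase that phosphorylates CREB, and Camkk2 encodes the upstream kinase that activates CaMKIV and AMPK. Calcineurin is the calcium-dependent phosphatase that dephosphorylates NFAT, and Ppp3ca and Ppp3cb encode its catalytic subunits, A alpha and A beta. Nos1 encodes neuronal nitric oxide synthase, which makes nitric oxide in subsets of spinal neurons. Protein kinase C genes are not among the members and are counted with the wider pathway.

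Upstream sequences show where these genes differ in the element through which CaM kinases reach transcription. CREB binds the cyclic AMP response element, TGACGTCA, and its core TGACG, and both were searched on either strand in the 250 bases before the annotated start in RefSeq (GRCr8), which held 8 of the 9 members and not Camkk2. The full palindrome was found in 1 member, Nos1, and in 1.59% of all 33469 promoters. The core was found in Nos1, Ppp3cb and Camk2a and in 18.2% of all promoters. The NFAT letters GGAAAA were found in 0 of the 8 members and in 21.6% of all promoters. These are matches of letters, not binding sites. Nos1 is printed as the member with the full palindrome, Ppp3cb as the calcineurin gene with 1 core, and Camk2g as the member called below, whose window holds no core. Capitals mark TGACG on either strand, and each run reads 5′ to 3′ along the gene.
Nos1: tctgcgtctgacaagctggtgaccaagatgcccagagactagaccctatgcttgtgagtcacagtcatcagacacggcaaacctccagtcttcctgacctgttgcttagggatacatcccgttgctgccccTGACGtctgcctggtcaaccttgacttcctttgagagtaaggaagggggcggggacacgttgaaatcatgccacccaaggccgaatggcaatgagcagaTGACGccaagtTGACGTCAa
Ppp3cb: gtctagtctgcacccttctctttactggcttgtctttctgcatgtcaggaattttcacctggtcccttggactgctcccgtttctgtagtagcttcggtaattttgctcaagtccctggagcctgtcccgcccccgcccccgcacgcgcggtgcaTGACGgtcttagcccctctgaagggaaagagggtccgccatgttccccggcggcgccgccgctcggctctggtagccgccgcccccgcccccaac
Camk2g: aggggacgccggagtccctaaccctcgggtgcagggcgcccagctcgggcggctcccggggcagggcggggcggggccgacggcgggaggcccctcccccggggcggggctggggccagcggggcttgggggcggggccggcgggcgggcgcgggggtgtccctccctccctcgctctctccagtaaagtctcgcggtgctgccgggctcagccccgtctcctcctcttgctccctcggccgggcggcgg
The Nos1 window is chr12:44371838-44372087 on the minus strand, with the palindrome 9 bases before the start and further cores at -119 and -20. The Ppp3cb window is chr15:3809012-3809261 on the plus strand, with its core at -95. The Camk2g window is chr15:3553106-3553355 on the plus strand and is 80.8% G or C, the highest share of the 8 windows, where the median of all promoters is 51.2%. The builds of the table and of these windows may differ, so the coordinates belong to GRCr8 alone.

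All 9 members were detected in every sample, and CaMKII beta was the most abundant. Over the 9 samples the mean level was 89.0 TPM for Camk2b, 57.5 for Ppp3cb, 47.7 for Ppp3ca, 36.1 for Camk2a, 28.2 for Camk2d, 19.1 for Camk2g, 6.90 for Nos1, 4.75 for Camkk2 and 3.10 for Camk4. Within samples the order of neighbours in this list held in 9 of 9 samples, except that Ppp3ca was above Camk2a in 8 of 9. The ranges of neighbours overlapped between samples for all pairs except Camk2b over Ppp3cb and Camk2g over Nos1. Camk2g was the most variable member, with a coefficient of variation of 30.9% over the 9 samples, and Ppp3cb was the least variable, at 11.1%.

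**Figure D1:**
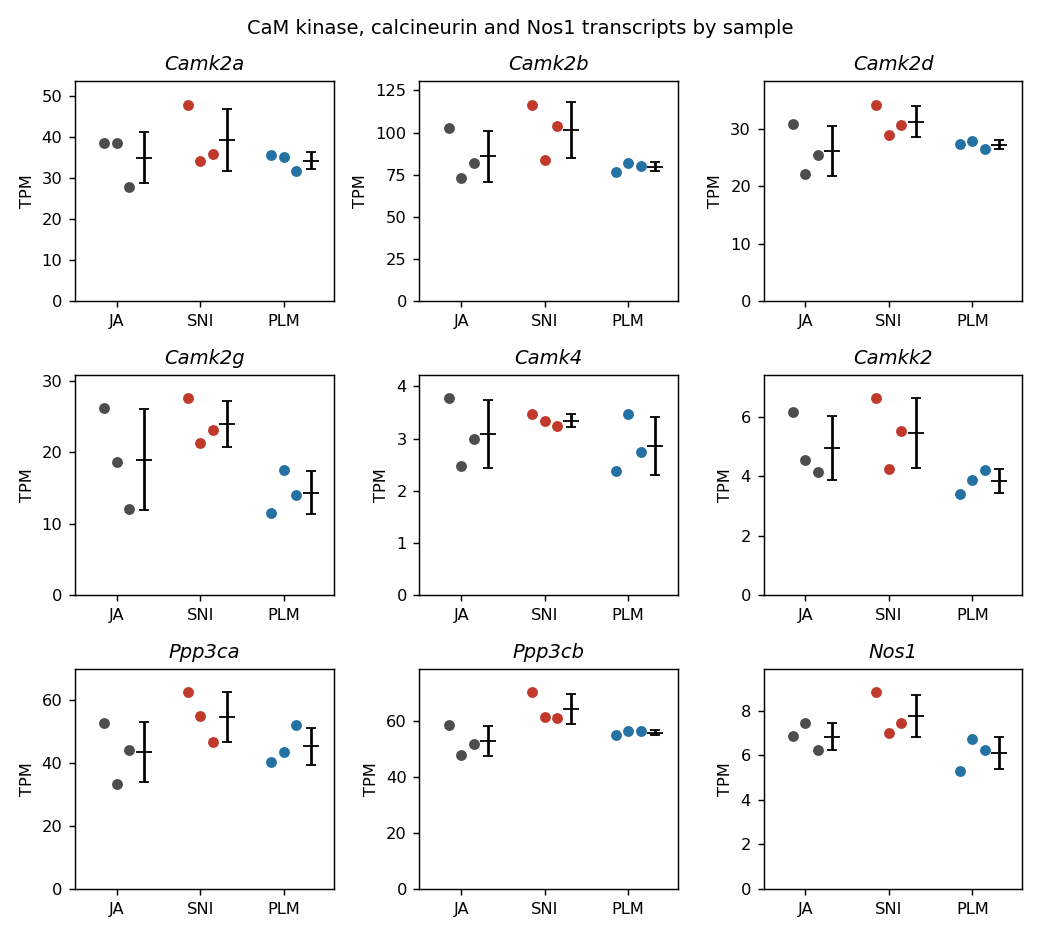
TPM of the 9 genes in JA, SNI and PLM, with 1 point per rat and the mean ± SD of 3 rats beside each group. SNI has the highest mean for all 9 genes, and the SNI and PLM points of Camk2b, Camk2d, Camk2g, Camkk2, Ppp3cb and Nos1 do not overlap, nor do the SNI and JA points of Ppp3cb.

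Libraries differed in cell type markers, in mitochondrial RNA and in their overall level, and these values touch every comparison. Neuron markers (12 genes) summed to 6012 to 7652 TPM in SNI and 5211 to 6024 in PLM, but to 3254 and 3660 in JA 2 and JA 3 against 6199 in JA 1. Schwann cell markers (5 genes) ranged from 60.6 to 6290 TPM in JA, 417 to 3571 in SNI and 182 to 2635 in PLM, with JA 3 the highest. Oligodendrocyte markers (8 genes) summed to 46079 to 56283 TPM over all samples, and apart from the blood list no marker found was at 0. Of all TPM, the 13 mitochondrial protein genes held 25.3% to 32.8% in JA, 23.7% to 26.1% in SNI and 31.3% to 32.8% in PLM. The median log2(TPM + 1) of a sample was 3.47 to 3.53 in SNI, 3.18 to 3.30 in PLM and 3.30 to 3.46 in JA. Each comparison is therefore given on the values as deposited and again with each sample centred on its median. In whole tissue, fewer cells of a type and less RNA per cell cannot be told apart.

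The effect of the drugs in injured rats was asked by PLM versus SNI. All 9 members had lower mean differences in PLM, by 0.18 to 0.71 on log2(TPM + 1), and 1 of 9, Camk2g, passed the test (limma on log2(TPM + 1), Benjamini-Hochberg adjusted p under 0.05 over all loci tested). By the same test 13.9% of the 15474 loci were called, 13.6% as lower in PLM. The median difference of the members was -0.26, beside -0.21 for all loci, of which 85.0% were lower. Without SNI 1 the median of the members was -0.16, beside -0.19 for all loci. After centring, 0 of 9 members were called and 0.814% of loci were. The centred median of the members was -0.02, beside 0.04 for all loci, and 5 of 9 members were lower. At an unadjusted p under 0.05, 6 members and 5739 loci were counted as deposited, against 1 member and 2621 loci after centring. When an absolute log2 fold change above 1 was asked for as well, 0 members and 1.65% of loci remained as deposited.

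Camk2g, which encodes the gamma subunit of CaMKII, was lower in PLM than in SNI. It was measured at 27.51, 21.25 and 23.07 TPM in SNI 1, 2 and 3 and at 11.47, 17.54 and 13.98 TPM in PLM 1, 2 and 3. The highest PLM sample was below the lowest SNI sample. The sham values of Camk2g were 26.18, 18.57 and 12.03 TPM, which span both other groups. The SNI mean was 23.9 ± 3.22 TPM and the PLM mean was 14.3 ± 3.05 TPM (SD, n = 3), and Camk2g fell by 0.71 on the log2(TPM + 1) scale (SE 0.16, 95% interval -1.11 to -0.32, limma adjusted p = 0.0407). After centring the difference was -0.47 (95% interval -0.82 to -0.11, limma adjusted p = 0.199), and the groups still did not overlap. Leaving out any 1 of the 6 samples gave differences of -0.86 to -0.57 with limma adjusted p between 0.0542 and 0.113, so the call was lost in all 6 fits. Over the 9 other alternatives the limma adjusted p ranged from 0.0277 to 0.199, and 2 passed. The 4 CaMKII genes are paralogs, and how reads shared between them were divided is not given in the sources used here.

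The other CaMKII genes had smaller differences. Camk2b, the beta subunit that binds actin at synapses, was measured at 116.59, 83.96 and 103.76 TPM in SNI and at 76.66, 82.04 and 80.49 TPM in PLM. Its groups did not overlap, although SNI 2 and PLM 2 were within 2 TPM of each other. The difference was -0.33 (SE 0.12, limma adjusted p = 0.102), and -0.08 after centring (limma adjusted p = 0.757). Camk2b was called only without SNI 2, at -0.46 (limma adjusted p = 0.0375). Camk2d, the delta subunit, which is widely expressed beyond neurons, was measured at 34.18, 28.86 and 30.67 TPM in SNI and at 27.39, 27.86 and 26.44 TPM in PLM. All PLM values lay below all SNI values, by a difference of -0.19 (SE 0.08, limma adjusted p = 0.133), which turned to 0.06 after centring and was -0.12 as deposited without SNI 1. Camk2a, the alpha subunit of excitatory synapses, was measured at 47.79, 34.05 and 35.87 TPM in SNI and at 35.61, 35.18 and 31.72 TPM in PLM. Its groups overlapped, SNI 1 stood above the rest, and the difference was -0.18 (SE 0.13, limma adjusted p = 0.351), or 0.07 after centring. Without SNI 1 it was -0.03, and without SNI 2 it was -0.27.

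The kinases around CaMKIV, at lower levels, did not pass the test either. Camkk2 was measured at 6.62, 4.26 and 5.52 TPM in SNI and at 3.41, 3.89 and 4.21 TPM in PLM, so that SNI 2 and PLM 3 nearly met. The difference was -0.41 (SE 0.16, limma adjusted p = 0.114), the second in size after Camk2g, and -0.16 after centring. Camk4 was measured at 3.47, 3.33 and 3.24 TPM in SNI and at 2.38, 3.47 and 2.74 TPM in PLM. PLM 2 equalled the highest SNI value, and the difference was -0.18 (SE 0.13, limma adjusted p = 0.346), or 0.07 after centring. It was -0.09 without PLM 1 and -0.29 without PLM 2.

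Of the calcineurin genes, the beta isoform was the tighter. Ppp3cb was measured at 70.15, 61.45 and 60.88 TPM in SNI and at 54.74, 56.16 and 56.25 TPM in PLM, without overlap. The difference was -0.20 (SE 0.07, limma adjusted p = 0.102), and it turned to 0.05 after centring (limma adjusted p = 0.742). Ppp3ca was measured at 62.38, 54.95 and 46.51 TPM in SNI and at 40.39, 43.48 and 51.83 TPM in PLM, and the groups overlapped. Its difference was -0.26 (SE 0.13, limma adjusted p = 0.199), -0.02 after centring, and -0.16 as deposited without SNI 1.

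Nos1 was measured at 8.83, 7.02 and 7.46 TPM in SNI and at 5.30, 6.71 and 6.25 TPM in PLM. No PLM sample reached an SNI sample, but SNI 2 and PLM 2 were close. The difference was -0.31 (SE 0.12, limma adjusted p = 0.117), and -0.06 after centring (limma adjusted p = 0.802). Counted over the members, 6 of 9 were lower in PLM without overlap between the groups, where 41.9% of all loci were. After centring, Camk2g was the 1 member of this kind, beside 9.73% of loci. The 95% interval lay within a log2 difference of 1 in either direction for 8 of 9 members as deposited and for 9 of 9 after centring.

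**Figure D2:**
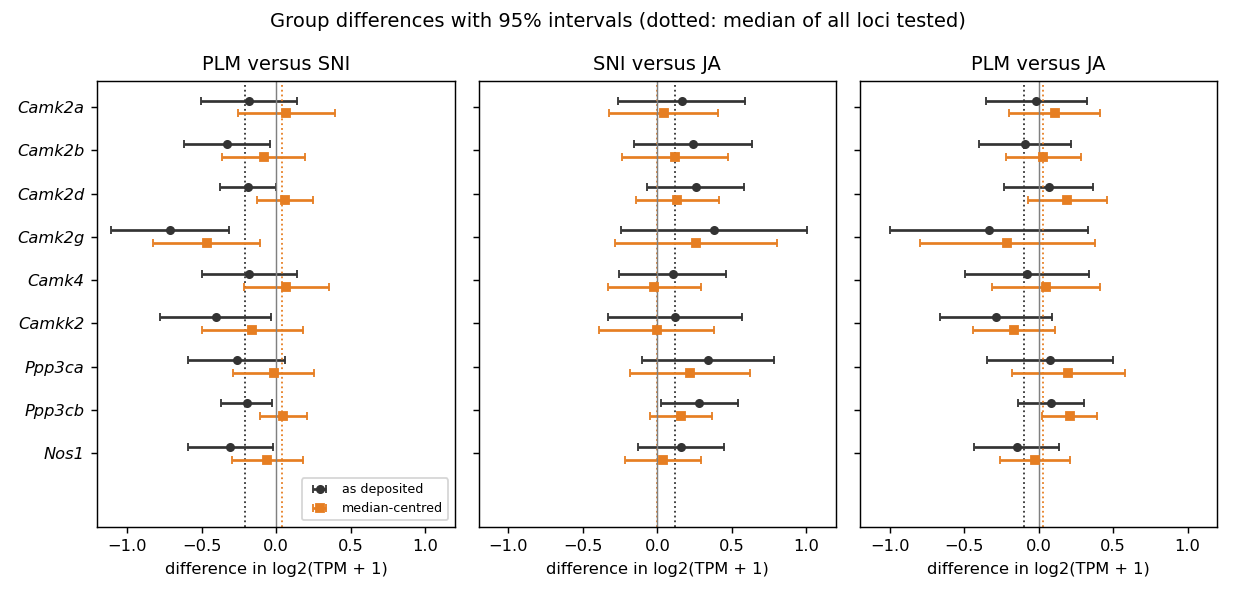
Differences in log2(TPM + 1) of the 9 genes in the 3 comparisons, with 95% intervals from limma (n = 3 rats in each group), as deposited and median-centred. Dotted lines mark the median of all loci tested, and Camk2g in PLM versus SNI is the 1 gene whose centred interval stays below 0, from -0.82 to -0.11.

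The effect of nerve injury was asked by SNI versus JA, which shares the SNI samples with the comparison above. All 9 members had higher means in SNI, by 0.10 to 0.38 on log2(TPM + 1), and none passed the test, with limma adjusted p between 0.614 and 0.808. Of 15557 loci, 0 were called by limma (a share of 0%), with 1104 loci and 1 member at an unadjusted p under 0.05. The median difference of the members was 0.24 as deposited, beside 0.12 for all loci. It was 0.11 without JA 3 (0.08 for all loci), 0.13 without SNI 1 (0.10 for all loci) and 0.36 without JA 1 (0.16 for all loci). After centring it was 0.12, beside -0.01 for all loci, 7 of 9 members were higher, and 0 members and 0 loci were called.

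Ppp3cb was the member whose SNI and JA values lay apart, though it did not pass the test. The sham values were 58.50, 47.71 and 51.82 TPM, all below the lowest SNI value of 60.88. The difference was 0.28 (SE 0.11, 95% interval 0.03 to 0.54, limma adjusted p = 0.614), and 0.16 after centring (95% interval -0.05 to 0.37). Ppp3cb was the 1 member without overlap, where 12.1% of loci were higher in SNI in this way as deposited and 4% after centring. Ppp3ca was measured at 52.55, 33.39 and 44.19 TPM in JA, and its difference of 0.34 (limma adjusted p = 0.614) came with overlapping groups, and was 0.22 after centring and 0.17 as deposited without JA 2.

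The CaMKII genes varied among the sham rats. Camk2b was measured at 102.55, 73.25 and 81.80 TPM in JA, Camk2d at 30.85, 22.16 and 25.46 TPM, and Camk2a at 38.57, 38.44 and 27.77 TPM. JA 1 was the highest sham sample for Camk2b and Camk2d, as it was for the neuron markers, and their part in the result was not tested. Camk2a was about as high in JA 2, the sample lowest in neuron markers, as in JA 1. The differences of SNI from JA were 0.24 for Camk2b, 0.26 for Camk2d and 0.16 for Camk2a, and 0.38 for Camk2g, all with overlapping groups. After centring they were 0.12, 0.13, 0.04 and 0.26. Without JA 3, the difference of Camk2g was 0.11 and that of Camk2a was 0.01, while Camk2b and Camk2d stood at 0.21 and 0.24. Camk2a was at 0.02 without SNI 1 and at 0.25 without SNI 2. The difference of Camk2b was 0.13 without JA 2 or without SNI 1, and 0.37 without JA 1 or without SNI 2. That of Camk2d was 0.15 without JA 2, and that of Camk2g was 0.64 without JA 1. Camk2g was also the 1 member whose 95% interval passed a log2 difference of 1, with an upper bound of 1.003. The sham values of the less abundant genes were 6.86, 7.44 and 6.22 TPM for Nos1, 6.17, 4.54 and 4.14 TPM for Camkk2, and 3.77, 2.48 and 3.00 TPM for Camk4. Their differences were 0.16, 0.12 and 0.10, and after centring 0.04, -0.00 and -0.02. Without 1 sample the differences ranged from 0.07 to 0.22 for Nos1, with the lowest without SNI 1.

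Treated injured rats were set against sham rats in PLM versus JA, which shares its samples with both other comparisons. None of the 9 members was called by limma, with adjusted p between 0.528 and 0.974, and 0.0195% of 15349 loci were. After centring 0 members and 0.013% of loci were called. At an unadjusted p under 0.05, 0 members and 1809 loci were counted as deposited. The differences ran from -0.33 for Camk2g to 0.08 for Ppp3cb, and 6 of 9 members were lower, where 71.2% of all loci were. Without JA 1, 3 of 9 were lower, and Ppp3cb stood at 0.16, against 0.02 without JA 2. After centring the differences ran from -0.21 to 0.21, with 3 of 9 members and 43.7% of all loci lower. Camkk2 was lower by a difference of -0.29 (SE 0.16, limma adjusted p = 0.528), with PLM 3 at 4.21 TPM above JA 3 at 4.14 TPM, and by -0.16 after centring. After centring, Ppp3cb was higher in PLM by 0.21 (95% interval 0.02 to 0.39, unadjusted p = 0.0335 and adjusted p = 0.494 in limma), and its groups did not overlap, as was so for 9.51% of loci. Without JA 1 the difference of Camk2g was -0.08 and that of Camkk2 was -0.15. Without JA 3 the difference of Camk2g was -0.61 (limma adjusted p = 0.225) and that of Camkk2 was -0.39 (limma adjusted p = 0.259). The 95% intervals of all 9 members lay within a log2 difference of 1 on both scales.

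Shares within a family do not change with the scaling of a sample, so the subunit makeup of CaMKII was computed as each gene's percent of the summed TPM of the 4 genes. The beta subunit made up the largest part of the pool in every sample, with 51.8% ± 3.78 for sham rats, 51.7% ± 1.86 for SNI rats and 51.3% ± 1.25 for PLM rats (SD, n = 3). The alpha subunit made up 21.2% ± 3.50, 19.98% ± 1.32 and 22.0% ± 1.42, and the delta subunit 15.8% ± 1.40, 16.0% ± 1.04 and 17.5% ± 0.526, in the same order. The gamma subunit, Camk2g, made up 12.2%, 12.6% and 11.9% in SNI 1, 2 and 3, against 7.59%, 10.8% and 9.16% in PLM 1, 2 and 3. It made up 13.2%, 12.2% and 8.18% in JA, so that 1 sham sample lay among the PLM values. The share of Camk2g was lower in PLM than in SNI by a difference of -3.07 percentage points, without overlap (exact permutation test, two-sided, p = 0.1, the smallest that 3 against 3 samples allow, and 0.6 adjusted over 12 tests). This design cannot reach 0.05, and the adjusted p of the exact permutation tests of the other shares lay between 0.6 and 0.9. The summed CaMKII level was 165.9 ± 28.1 TPM in JA, 195.9 ± 29.1 in SNI and 155.5 ± 6.25 in PLM.

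**Figure D3:**
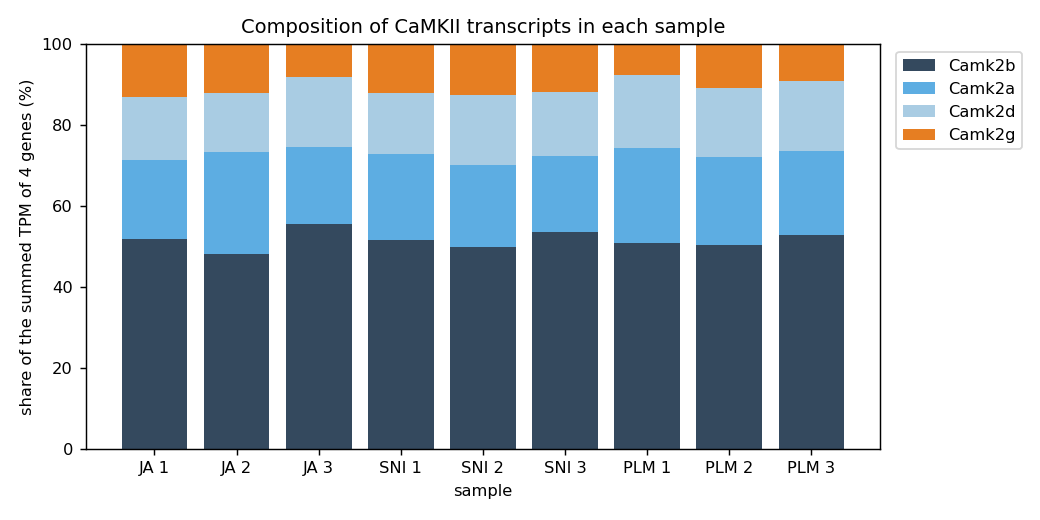
Percent of the summed TPM of Camk2a, Camk2b, Camk2d and Camk2g taken by each gene, with 1 stacked bar per rat. The share of Camk2g, at the top of each bar, is 11.9% to 12.6% in SNI, 7.59% to 10.8% in PLM and 8.18% to 13.2% in JA.

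The balance of 2 calcineurin catalytic genes, Ppp3ca and Ppp3cb, was compared in the same way, where again the smallest possible p was 0.1. Another catalytic gene, Ppp3cc, was left out of the shares and the sum. Its means were 12.4, 14.6 and 11.6 TPM in JA, SNI and PLM. Of the sum of Ppp3ca and Ppp3cb, Ppp3ca made up 44.8% ± 3.24 for sham rats, 45.9% ± 2.21 for SNI rats and 44.7% ± 2.89 for PLM rats (SD, n = 3), and the 3 comparisons each gave an adjusted p of 1 (exact permutation test, two-sided). The sum was 96.1 ± 14.98 TPM in JA, 118.8 ± 12.7 in SNI and 100.95 ± 6.57 in PLM.

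The wider pathway was read from a list of calmodulin, CaM kinase, calcineurin, NFAT, CREB, nitric oxide and protein kinase C genes. The list has 45 names, of which 42 were in the table as 43 loci, and 40 loci had a mean of at least 1 TPM. In PLM versus SNI, 36 of 40 loci were lower with a median difference of -0.18, where 85.0% of all loci were lower with a median of -0.21. After centring, 13 of 40 were lower with a median of 0.07, where 42.4% of all loci were lower. As deposited 2 of 40 were called as lower, a smaller share than the 13.6% of all loci. Both encode inhibitors of calcineurin. They were the 2 called of 6 calcineurin regulators and anchors, and Rcan2 and Rcan3 were not called (limma adjusted p = 0.155 and 0.120). Rcan1, whose product binds and restrains calcineurin and whose transcription calcineurin-NFAT signaling raises, was measured at 27.83, 25.54 and 26.39 TPM in SNI and at 21.05, 22.12 and 20.67 TPM in PLM. The PLM values of Rcan1 lay well below the SNI values, by a difference of -0.31 (SE 0.06, limma adjusted p = 0.0342). The sham values of Rcan1 were 28.00, 23.78 and 21.71 TPM, from above the highest SNI value to within the PLM range. Chp1, a calcineurin B homologue that inhibits the phosphatase, was measured at 104.2, 94.65 and 98.84 TPM in SNI and at 77.78, 87.59 and 80.44 TPM in PLM, without overlap. The difference of Chp1 was -0.27 (SE 0.07, limma adjusted p = 0.0484). The sham values of Chp1 were 92.18, 76.14 and 75.38 TPM, and JA 2 and JA 3 lay below all PLM values. After centring, Rcan1 stood at -0.06 (limma adjusted p = 0.692) and Chp1 at -0.03 (limma adjusted p = 0.870), and 0 of 40 loci were called. With 1 sample left out, the limma adjusted p ranged from 0.0473 to 0.115 for Rcan1, which stayed called only without SNI 2, and from 0.0557 to 0.152 for Chp1.

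The next by p were Cabin1, another calcineurin inhibitor, at -0.31, Ppp3cc, the third catalytic gene of calcineurin, at -0.31, Crtc1, a CREB coactivator that calcineurin dephosphorylates, at -0.35, and Camk1d, a CaM kinase, at -0.34. Their limma adjusted p lay between 0.0565 and 0.0714. After centring these genes stood at -0.06, -0.06, -0.11 and -0.09. By role, all 6 calcineurin regulators and anchors were lower as deposited, with a median of -0.29, where 85.0% of all loci were lower. After centring 4 of 6 were lower, where 42.4% of all loci were. The 3 calmodulin loci had a median of -0.17 as deposited and 0.07 after centring, and the 3 conventional protein kinase C genes -0.13 and 0.12, with none called. The 4 NFAT genes had medians of -0.19 and 0.06, and the 7 CREB factors and coactivators -0.21 and 0.04. The 3 calmodulin-binding neuronal genes, Nrgn, Gap43 and Pcp4, had a median of 0.08 as deposited and 0.33 after centring, the highest of the roles.

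In SNI versus JA, 0 of 40 pathway loci were called by limma, and 6 were lower, with a median of 0.17, where 23.6% of all loci were lower with a median of 0.12. After centring, 15 of 40 were lower with a median of 0.05, where 51.4% of all loci were lower. The smallest p belonged to 1 of 2 loci named Calm2, which encodes calmodulin, at 0.39, Gucy1b1, the beta subunit of the nitric oxide receptor, at 0.31, Chp1 at 0.29, the anchoring protein gene Akap5 at 0.42, Rcan2 at 0.23 and Ppp3cc at 0.22, all with a limma adjusted p of 0.614. After centring Calm2 stood at 0.26, Gucy1b1 at 0.19, Chp1 at 0.17, Akap5 at 0.30, Rcan2 at 0.11 and Ppp3cc at 0.09. In PLM versus JA, 0 of 40 were called, with 16 lower and a median of 0.03, where 71.2% of all loci were lower with a median of -0.10. After centring 12 were lower with a median of 0.15, where 43.7% of all loci were lower. As deposited the median was 0.07 without JA 1, with 16 lower. It was -0.03 without JA 2 and -0.04 without JA 3, with 23 lower in each case, and -0.0047 without PLM 2, with 22 lower. The same Calm2 locus stood at 0.27, Rcan3 at -0.31, the calmodulin-binding gene Pcp4 at 0.30, Rcan1 at -0.19, Nfatc1 at -0.24 and the CaMKII inhibitor gene Camk2n2 at -0.21, with limma adjusted p from 0.417 to 0.569. After centring Calm2 stood at 0.39, Rcan3 at -0.18, Pcp4 at 0.42, Rcan1 at -0.06, Nfatc1 at -0.12 and Camk2n2 at -0.08. Without JA 1, Rcan1 stood at -0.09, Rcan3 at -0.19 and Camk2n2 at -0.12, and Camk2n2 was at -0.12 without PLM 1 as well. Without JA 2, Calm2 stood at 0.17 and Pcp4 at 0.19.

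Markers of cell types moved beside the members. Astrocyte markers (10 genes) summed to 3071 to 3404 TPM in SNI, 1497 to 1811 in PLM and 1819 to 3536 in JA, with JA 3 the lowest sham sample. In PLM versus SNI, 10 of 10 astrocyte markers were called as lower, with a median difference of -1.35, and 8 of 10 were called after centring, with a median of -1.11. Over the 9 samples, centred Camk2g followed the mean of the astrocyte markers with Pearson's r = 0.77, and with r between 0.72 and 0.89 when any 1 sample was left out. Its r was -0.72 with the oligodendrocyte markers (-0.88 to -0.65 with any 1 sample left out), -0.65 with the microglia markers, -0.60 with the blood markers and 0.32 with the neuron markers (0.08 to 0.54 with any 1 sample left out). JA 3, the sham sample lowest in astrocyte markers, was also the sham sample lowest in Camk2g. Within the other groups the order differed on centred values. PLM 1 was the highest PLM sample in the astrocyte mean (5.60) and the lowest in Camk2g (3.83). SNI 2 was the highest SNI sample in the astrocyte mean (6.62) and the lowest in Camk2g (4.36). The points of these correlations share library scaling and group. Of the blood markers, 6 of 6 had higher means in PLM than in SNI, with none called, a median difference of 0.82 (1.07 after centring) and sums of 8252 to 11763 TPM in PLM, 4341 to 7432 in SNI and 5665 to 12294 in JA. The part of these markers in the Camk2g result was not tested.

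The members differed in how they followed the neuron markers. Pearson's r with their mean was 0.90 for Camk2d, 0.84 for Ppp3cb, 0.71 for Camk2b and 0.60 for Ppp3ca, where the points share library scaling and group. It was 0.48 for Camk4, 0.33 for Camk2a, 0.23 for Camkk2 and -0.10 for Nos1. With any 1 sample left out it stayed at 0.76 or above for Camk2d, 0.62 for Ppp3cb and 0.49 for Camk2b, but ranged from -0.06 to 0.72 for Ppp3ca, 0.04 to 0.63 for Camk4, 0.07 to 0.77 for Camk2a, 0.11 to 0.36 for Camkk2 and -0.34 to 0.34 for Nos1. In PLM versus SNI, 0 of 12 neuron markers were called, with a median of -0.22 as deposited and 0.02 after centring. In SNI versus JA 0 of 12 were lower, with a median of 0.35 (0.23 after centring), and in PLM versus JA 3 of 12 were lower, with a median of 0.27 (0 of 12 and 0.39 after centring), with none called. Their part in the differences from JA was not tested. Camk2a followed the markers of meninges and fibroblasts with r = -0.92 and those of Schwann cells with r = -0.87, and was lowest in JA 3, where both lists were highest. Meningeal and fibroblast markers (4 genes found) summed to 74.3 to 324 TPM in JA, 58.0 to 196 in SNI and 40.1 to 106 in PLM, and their part in the Camk2a values was not tested.

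**Figure D4:**
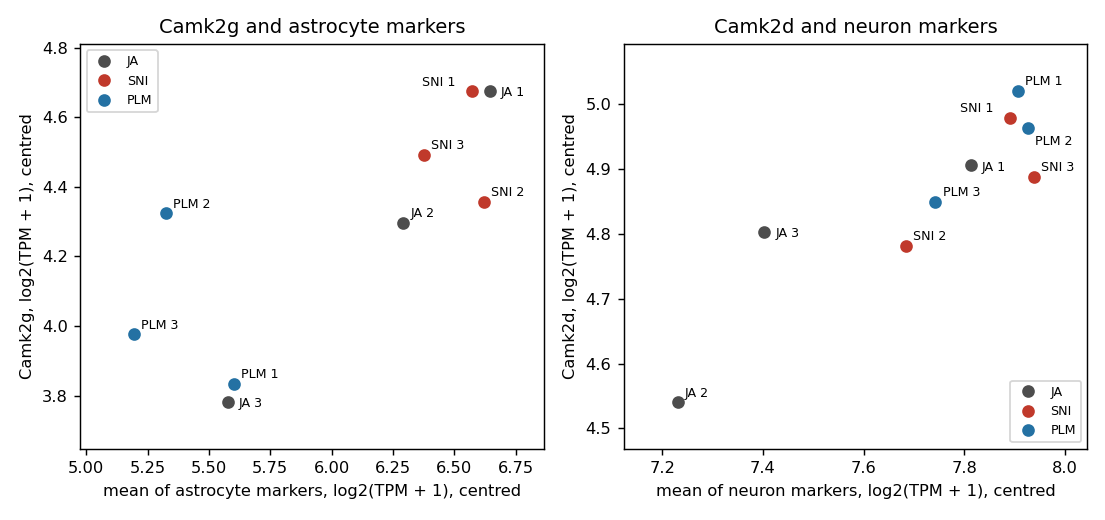
Median-centred log2(TPM + 1) of Camk2g against the mean of 10 astrocyte markers (left) and of Camk2d against the mean of 12 neuron markers (right), with 1 point per rat. The PLM rats and JA 3 lie at low astrocyte marker levels in the left panel, and JA 2 and JA 3 at low neuron marker levels in the right panel, with r = 0.77 and r = 0.90 over 9 samples.

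The members were also compared with each other. Over the 9 samples, on centred values, Camk2d and Ppp3cb had r = 0.93, Ppp3ca and Ppp3cb 0.76, Camk2b and Camk2d 0.76, Camk2b and Camkk2 0.75, and Camk2g and Camkk2 0.70. Camk2g and Ppp3cb had r = -0.05. Of 9811 loci with a name and a mean of at least 5 TPM, those closest in pattern to Camk2a were Dlg2, a postsynaptic scaffold gene (r = 0.97), and Tmem200b (0.96). They were Lrp3 (0.99) and Maea (0.98) for Camk2b, Ube2k (0.98) and the synaptotagmin gene Syt3 (0.97) for Camk2d, and Irf2bpl (0.95) and LOC100911248 (0.95) for Camk2g. For Ppp3ca they were Fyttd1 (0.96) and Reps2 (0.95), and for Ppp3cb Gucy1b1 (0.97) and Stk39 (0.97). Camkk2 was closest to Tvp23a (0.95) and Usp20 (0.95), Camk4 to Mpg (0.91) and Marchf7 (0.91), and Nos1 to Gclc (0.90) and Faf2 (0.89). These correlations over 9 samples, the highest of many, are a description.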

How the data were processed

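The authors sequenced RNA of 9 spinal cords and deposited 1 table of TPM, transcript abundance adjusted for length and library total, from StringTie. Per the submitters' processing notes, reads were trimmed with fastp 0.19.5 after CASAVA. The notes name a human build, GRCh38.p13, while the loci carry rat identifiers, and the rat build used is not given in the sources used here. Samples were grouped by their labels. Groups were compared in pairs on log2(TPM + 1) with limma 3.58.1 in R 4.3.3, with a variance trend, on the loci averaging 1 TPM or more in the 6 samples fitted, and p-values were adjusted over all loci tested (Benjamini-Hochberg). Fold changes on this scale understate those of genes with low TPM. Centred values subtract each sample's median over the loci tested. Shares within families were compared with exact permutation tests (SciPy 1.17.1). No count test was possible on TPM. The limma fit, in its main setting, was tested on simulated data.

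The members and lists were chosen with earlier results of these data known. All members were named, with up to 6 pathway genes per comparison by smallest p and the 2 loci most like each member. Alternatives were 3 other scalings, a pseudocount of 0.1, other filters, 1 fit to 9 samples, a replicate block, no variance trend, other thresholds and leaving out each sample. The names Calm3, Nos1ap and Prkg1 are not analysed here. Further marker lists (excitatory, inhibitory and motor neurons, microglia, ependymal cells, endothelium, blood) had at most 1 gene called each in PLM versus SNI, and in SNI versus JA 5 of 5 motor neuron markers were higher, with none called and a median of 0.96.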

Additional observations from a re-analysis of the deposited data

How the results depend on the processing

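In PLM versus SNI, 1 member was called on the values as deposited. It was 0 after median centring, after quantile normalization, without mitochondrial protein genes, with no filter, with all 9 samples in 1 fit, without the variance trend and at the thresholds of unadjusted p under 0.05 with an absolute log2 fold change above 1. Without 1 sample it was 0 to 1, and the 1 was Camk2b without SNI 2. The pathway calls went from 2 to 0 under the same settings, except 1 with no filter, and were 0 to 2 without 1 sample, the 2 being Rcan1 and Camk1d without SNI 2. All loci called fell from 2148 (2110 lower, 38 higher) to 126 after centring (106 lower, 20 higher), 155 with quantile normalization, 283 without mitochondrial genes, 1258 with no filter, 471 in 1 fit, 1454 without the variance trend and 275 to 1494 without 1 sample. With at least 1 TPM in every sample 2639 loci were called, and with a pseudocount of 0.1 there were 2214. Under both of these, 1 member and 2 pathway loci were called, as in the values reported. The cause was not tested.

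The replicate numbers were not read as pairs of rats. Same-numbered samples of PLM and SNI had correlations of deviations of 0.0323, -0.0193 and -0.00695. Those of SNI and JA were 0.123, -0.0508 and 0.0562, and those of PLM and JA -0.0247, -0.00944 and 0.105. With 3 rats in each group, such correlations cannot settle whether rats were paired. With the replicate block, 0 members, 0 pathway loci and 152 loci were called in PLM versus SNI, and Camk2g had a limma adjusted p of 0.133.

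Signs turned, in none of these cases past the test, after centring and with quantile normalization in PLM versus SNI for Camk2a (0.0670 and 0.0286), Camk2d (0.0589 and 0.0304), Camk4 (0.0679 and 0.0384) and Ppp3cb (0.04998 and 0.00465). In SNI versus JA they turned for Camk4 (-0.0196 and -0.00227) and, after centring, Camkk2 (-0.00276). Without 1 sample the differences of Camk4 ranged from -0.00743 to 0.220 and those of Camkk2 from -0.00791 to 0.261. In PLM versus JA they turned for Camk2a (0.107 and 0.0676, and 0.0394 without mitochondrial genes), Camk4 (0.0464 and 0.0312) and, after centring, Camk2b (0.0318). Without 1 sample the ranges were -0.169 to 0.0604 for Camk2a, -0.198 to 0.0415 for Camk2b, -0.0406 to 0.189 for Camk2d, -0.188 to 0.0406 for Camk4 and -0.0972 to 0.222 for Ppp3ca. The cause was not tested.

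Without 1 sample, differences in CaMKII share, in percentage points, ranged in PLM versus SNI from -1.31 to 0.546 for Camk2b and from -3.87 to -2.27 for Camk2g. In SNI versus JA they ranged from -2.36 to 0.807 for Camk2a, from -1.96 to 1.82 for Camk2b, from -0.392 to 0.995 for Camk2d and from -0.451 to 2.06 for Camk2g. In PLM versus JA they ranged from -0.350 to 2.82 for Camk2a and from -2.39 to 1.40 for Camk2b. Differences in the share of Ppp3ca ranged from -2.81 to -0.0658 in PLM versus SNI, from -0.812 to 2.30 in SNI versus JA and from -1.99 to 1.08 in PLM versus JA. Depth is unknown, so no limit of detection is given.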
